A study of Mus musculus with 9 samples.

Results

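The genes described here copy DNA and admit cells to S phase: 48 mouse genes were chosen by symbol, from origin binding to chromatin assembly, and probes were assigned to them through the RefSeq accession in the scanner files. All 48 had a named probe (54 probes in all) and 47 were bright enough to test, out of 20660 genes named on the array and 14033 tested. RNA came from mouse colon organoids, which are epithelial structures grown in culture, and was hybridised to single-colour Cy3 Agilent arrays. There were 3 arrays of untreated organoids (0 weeks), 3 after 12 weeks and 3 after 60 weeks of exposure to inflammatory reagents, which the labels do not name. No strain, genotype, age or sex is given in the labels, nor whether the 3 replicates of a group were separate animals or cultures, so the p-values measure only the spread between these samples, which may be technical. No group was kept untreated for 12 or 60 weeks, so treatment and time in culture cannot be told apart.

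To copy a genome once, a cell first loads the ring-shaped MCM2-7 helicase onto origins bound by the origin recognition complex, with Cdc6 and Cdt1 as loaders. At the G1/S transition cyclin E and its kinase inactivate the retinoblastoma protein, E2F factors switch on many replication genes, and the loaded helicases are activated by Cdc45 and the GINS complex. In the colon, dividing cells lie in the lower crypt, and organoids are grown under conditions that keep such cells cycling.

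Promoter windows of 300 bases (250 before the annotated start and 50 after it) were found in RefSeq (GRCm38.p6) for 40 of the 48 members. They were searched on both strands, overlaps allowed, for the E2F-type letters TTTCCCGC, TTTCGCGC, TTTGCCGC and TTTGGCGC. At least 1 match lay in the windows of 15 members (37.5%), against 4.27% of the 11214 tested genes with a window and 2.6% of all 27025 genes with one. Of 61 other replication and G1/S genes with a window 17 (27.9%) held a match, as did 1 of 15 mitotic genes (6.67%). A match describes letters in a window and does not show that a factor binds there. The 200 bases before the start are shown for 4 members because they hold such letters while the genes moved differently: Mcm6 and Dtl were lower at both later times, Mcm5 was lower at 60 weeks, and Orc1 was higher at 12 weeks. They are written 5′ to 3′ in the direction of the gene, with E2F-type letters on either strand in capitals, and lie in GRCm38.p6 at chr1:128359706-128359905 on the minus strand (Mcm6), chr8:75109309-75109508 on the plus strand (Mcm5), chr1:191575545-191575744 on the minus strand (Dtl) and chr4:108579254-108579453 on the plus strand (Orc1).
Mcm6: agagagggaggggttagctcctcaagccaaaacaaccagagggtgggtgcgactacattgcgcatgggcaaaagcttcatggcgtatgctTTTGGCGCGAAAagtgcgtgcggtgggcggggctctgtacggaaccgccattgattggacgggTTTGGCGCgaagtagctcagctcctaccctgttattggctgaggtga
Mcm5: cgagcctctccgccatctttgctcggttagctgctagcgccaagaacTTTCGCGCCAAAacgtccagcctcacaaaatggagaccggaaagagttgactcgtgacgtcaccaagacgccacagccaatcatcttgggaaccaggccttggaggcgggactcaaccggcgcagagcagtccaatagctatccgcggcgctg
Dtl: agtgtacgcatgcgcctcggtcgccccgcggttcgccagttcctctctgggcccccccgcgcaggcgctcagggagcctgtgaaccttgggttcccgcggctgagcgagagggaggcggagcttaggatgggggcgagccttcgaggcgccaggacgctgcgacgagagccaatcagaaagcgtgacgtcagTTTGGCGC
Orc1: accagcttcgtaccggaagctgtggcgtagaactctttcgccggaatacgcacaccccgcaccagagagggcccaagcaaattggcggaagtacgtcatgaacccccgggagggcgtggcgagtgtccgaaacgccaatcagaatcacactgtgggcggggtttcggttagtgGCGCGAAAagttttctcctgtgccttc

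In the Mcm6 stretch there are 3 matches, 2 of them overlapping on opposite strands, and in the Mcm5 stretch 2 overlapping matches. The annotated start used for Orc1 lies inside the gene, whose interval begins at chr4:108575705. That used for Mcm5 also lies inside its gene's interval, which begins at chr8:75109468. Among MCM2-7 genes 4 of 5 windows held the letters, and among the deoxynucleotide genes 0 of 4. Whether the window held them went with little difference in the size of the change: at 60 against 0 weeks the median log2 change was -0.98 over the 15 members with a match and -1.01 over the 25 without one. The letters TTTGAA, the core of the element known from promoters of mitotic genes, were in 12.5% of the members' windows, in 11 of 15 windows of mitotic genes (73.3%), in those of 14.8% of tested genes and in those of 20.2% of all genes with a window.

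Levels are given as log2 of the signal over the 75th percentile of its own array, where a level of 0 equals that percentile, and differences are log2 changes ± SE with limma's Benjamini-Hochberg adjusted p over all tested genes. A gene was called at an adjusted p under 0.05. Levels of different genes come from different probes and were not compared with each other. The arrays had 49.16% to 52.73% of probes well above background and 0 saturated spots. Replicates correlated across genes at 0.994 to 0.996 at 0 weeks, 0.977 to 0.992 at 12 weeks and 0.990 to 0.994 at 60 weeks; replicate 2 of 12 weeks was the one that stood apart. For the members that array had a median difference of -0.07 from the mean of the other 12 weeks arrays, against 0.035 for all tested genes. Opposite deviations of single genes cancel in such a median. That array was the lowest of the 3 for 25 of 47 members and the highest for 14. Over all 14033 tested genes it was the lowest for 5423 and the highest for 6388. All 10 colon epithelium markers were above background in every group. Of the 8 fibroblast markers 2 were above background in each group, and Ptprc, the defining marker of leukocytes, was at background on all arrays. Of the 7 leukocyte markers on the array, Ptprc included, 3, 3 and 4 were above background at 0, 12 and 60 weeks, and the summed linear levels of the list were 16.7 to 23.4 at 0 weeks, 24.3 to 48 at 12 weeks and 27.3 to 34.4 at 60 weeks. Of the 5 smooth muscle markers 2, 2 and 3 were above background, with Myh11 and Des at background on all arrays, and the sums of 2.01 to 2.68 at 0 weeks, 0.878 to 2.01 at 12 weeks and 1.06 to 1.41 at 60 weeks did not overlap between 60 and 0 weeks. Of the 6 neuron and glia markers 3, 3 and 4 were above background, with sums of 1.03 to 1.06 at 0 weeks, 0.707 to 0.874 at 12 weeks and 0.689 to 1.08 at 60 weeks, and of the 6 endothelium markers 2 in each group, with Cdh5, Tek, Cldn5 and Emcn at background on all arrays. The part of these lists in the results was not tested.

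After 60 weeks most of the replication genes were lower than in untreated organoids. Of the 47 tested members 38 fell and 1 rose, Ccne1, while 16.1% of all tested genes were called lower and 16.7% higher. The median change of the members was -0.98, against -0.04 for all tested genes. Of the members 22 were called lower by more than 2-fold, as were 721 of all 14033 tested genes. For 41 members all 3 arrays of 60 weeks lay below all 3 arrays of 0 weeks, against 28.9% of all tested genes. The 8 members without a call were Orc1, Orc2, Gins3, Pola2, Pold3, Rfc1, Rfc2 and Fen1. Leaving out some single array ended the calls of Rpa3 and Tyms. In bulk RNA, fewer cells that express these genes and less RNA per cell cannot be told apart.

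After 12 weeks, against untreated organoids, 23 members fell and 3 rose (Ccne1, Orc1 and Orc2), where 22.7% of all tested genes were called lower and 19.1% higher, and the median change was -0.32 against -0.06 for all tested genes. The arrays did not overlap for 31 members that were lower at 12 weeks, against 29.7% of all tested genes. Only 1 of the 47 members, Dtl, was called lower by more than 2-fold, as were 880 of all 14033 tested genes. This count depended on single arrays: 14 members fell without 0 weeks replicate 2, 13 without 0 weeks replicate 3 and 14 without 12 weeks replicate 1. The share of all tested genes called lower was then also smaller, at 15.9%, 16.1% and 17.6% in that order. The calls that leaving out some single array ended were those of Orc1, Mcm3, Mcm4, Gins2, Gins3, Gins4, Prim1, Pold2, Pold3, Rpa1, Rpa3 and Chaf1b.

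Between 60 and 12 weeks 35 members fell and 0 rose, where 17.6% of all tested genes were called lower and 20.7% higher. The median change was -0.69 against 0.02 for all tested genes, and the arrays of 35 members lay lower at 60 weeks without overlap, against 21.9% of all tested genes. Leaving out some single array ended the calls of Orc6, Gins4, Prim1, Tk1 and Slbp. The 3 comparisons share their arrays and are not independent of each other. In the order of the means, 35 of 47 members were highest at 0 weeks, intermediate at 12 weeks and lowest at 60 weeks. How many of all tested genes had this order was not counted. By limma's F test over the 3 times, 43 members differed (56.7% of all tested genes did), and Gins3, Pola2, Rfc1 and Fen1 did not pass.

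**Figure D1:**
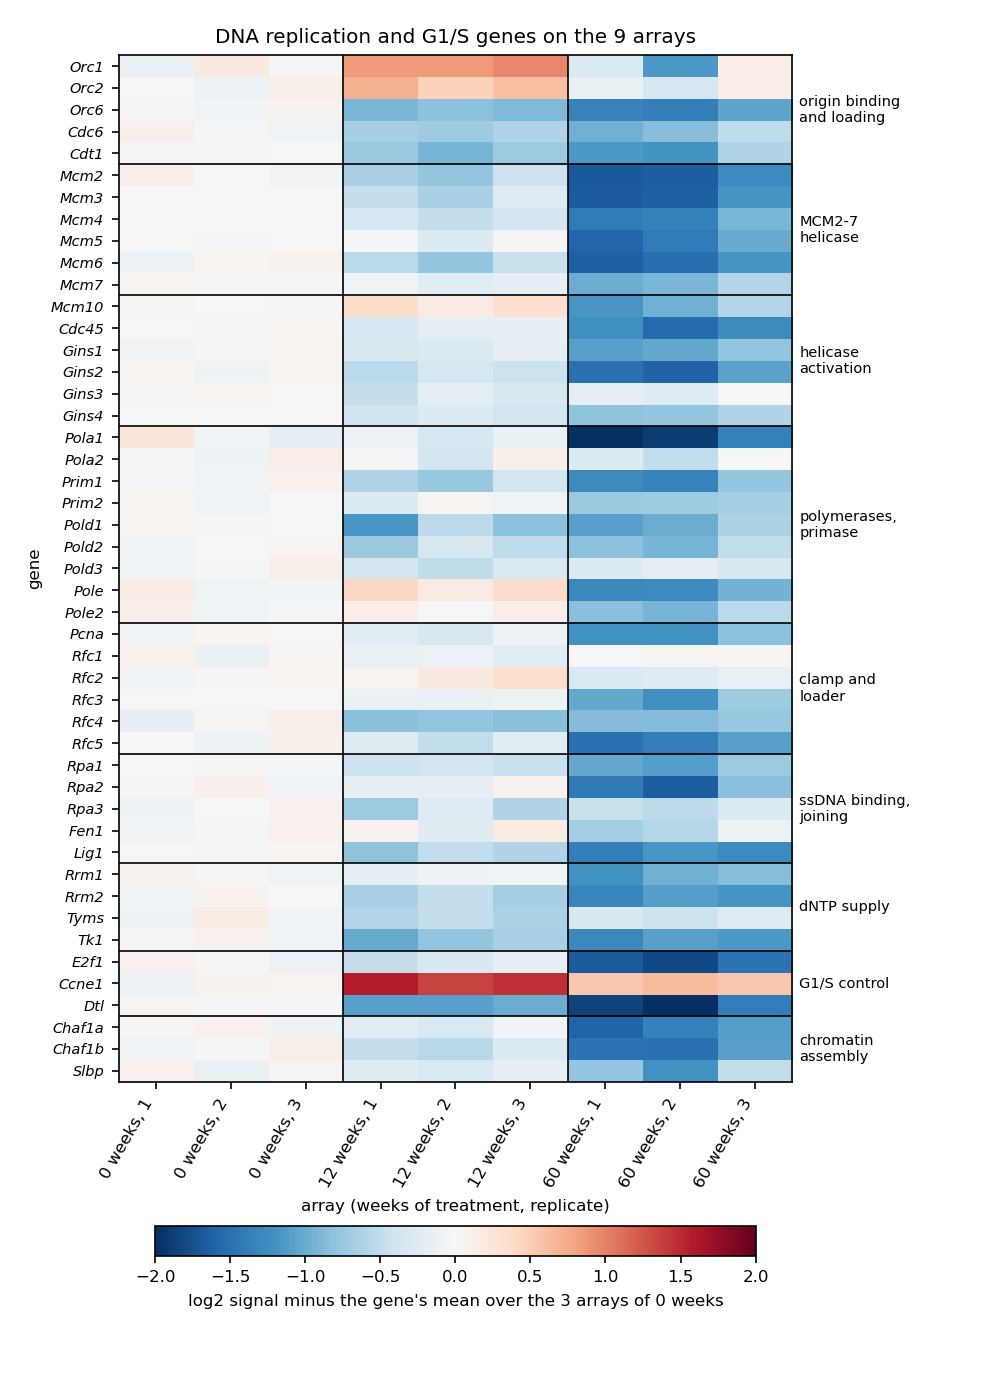
Log2 signal of the 47 tested members on each of the 9 arrays, minus the gene's mean over the 3 arrays of 0 weeks, with genes in rows by replication step and arrays in columns from 0 to 60 weeks. Blue (lower) fills most rows at 60 weeks, where 41 members lay below all arrays of 0 weeks, and Ccne1, Orc1 and Orc2 are red (higher) at 12 weeks.

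One array of 60 weeks was less low than the others. Replicate 3, which lay on a second slide with its own scan, was the highest of the 3 for 41 of 47 members (87.2%), against 44.4% of all tested genes. Its median excess over the mean of replicates 1 and 2 was 0.37 log2 for the members and 0.04 for all tested genes. That array was still below the lowest array of 0 weeks for 41 members, as it was for 40.7% of all tested genes. Without it the members' median change at 60 against 0 weeks was -1.09, and 38 members were called lower (with Fen1 and without Rpa3), against 14.7% of all tested genes. Slide and array cannot be told apart here, since the second slide held 1 array. On the first slide, 1 row held the arrays of 0 weeks with 12 weeks replicate 1, and the other held the remaining 12 weeks arrays with 60 weeks replicates 1 and 2. Within a row, and with row as a block, 12 against 0 weeks therefore rested on 1 array of 12 weeks, replicate 1. In the fit with row as a block, 60 against 0 weeks passed through that same array. Within a row the median change of the members was -0.36 at 12 against 0 weeks, with 18 lower and 2 higher, where 16.2% of all tested genes were called lower and 15.6% higher. It was -0.78 at 60 against 12 weeks, with 37 lower and 0 higher, where 12.7% of all tested genes were called lower and 12.1% higher, while 60 and 0 weeks shared no row. Within a row, as with row as a block, the calls of Orc1, Mcm3, Mcm4, Mcm6, Pold3 and Chaf1b at 12 against 0 weeks were lost. With row as a block 35 members were called lower at 60 against 0 weeks, against 4.92% of all tested genes, and the calls of Ccne1, Rpa3, Slbp and Tyms were lost.

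Most members followed 1 of 3 courses. In 14 of them the level fell at both intervals and in the whole: Orc6, Mcm2, Mcm3, Mcm4, Mcm6, Gins2, Gins4, Prim1, Rpa1, Lig1, Rrm2, Tk1, Dtl and Chaf1b. In 17 the fall passed the test only in the comparisons with 60 weeks: Mcm5, Mcm7, Mcm10, Cdc45, Gins1, Pola1, Prim2, Pole, Pole2, Pcna, Rfc3, Rfc5, Rpa2, Rrm1, E2f1, Chaf1a and Slbp. In 7 it passed at 12 and at 60 weeks against 0 weeks and not between 60 and 12 weeks: Cdc6, Cdt1, Pold1, Pold2, Rfc4, Rpa3 and Tyms. Whether these courses differ from each other was not tested, and how many of all tested genes followed each was not counted. A course rests on which calls passed, and the calls named above were lost with some single array left out. In the first course only Mcm2, Mcm6, Lig1, Rrm2 and Dtl kept every call whichever single array was left out.

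**Figure D2:**
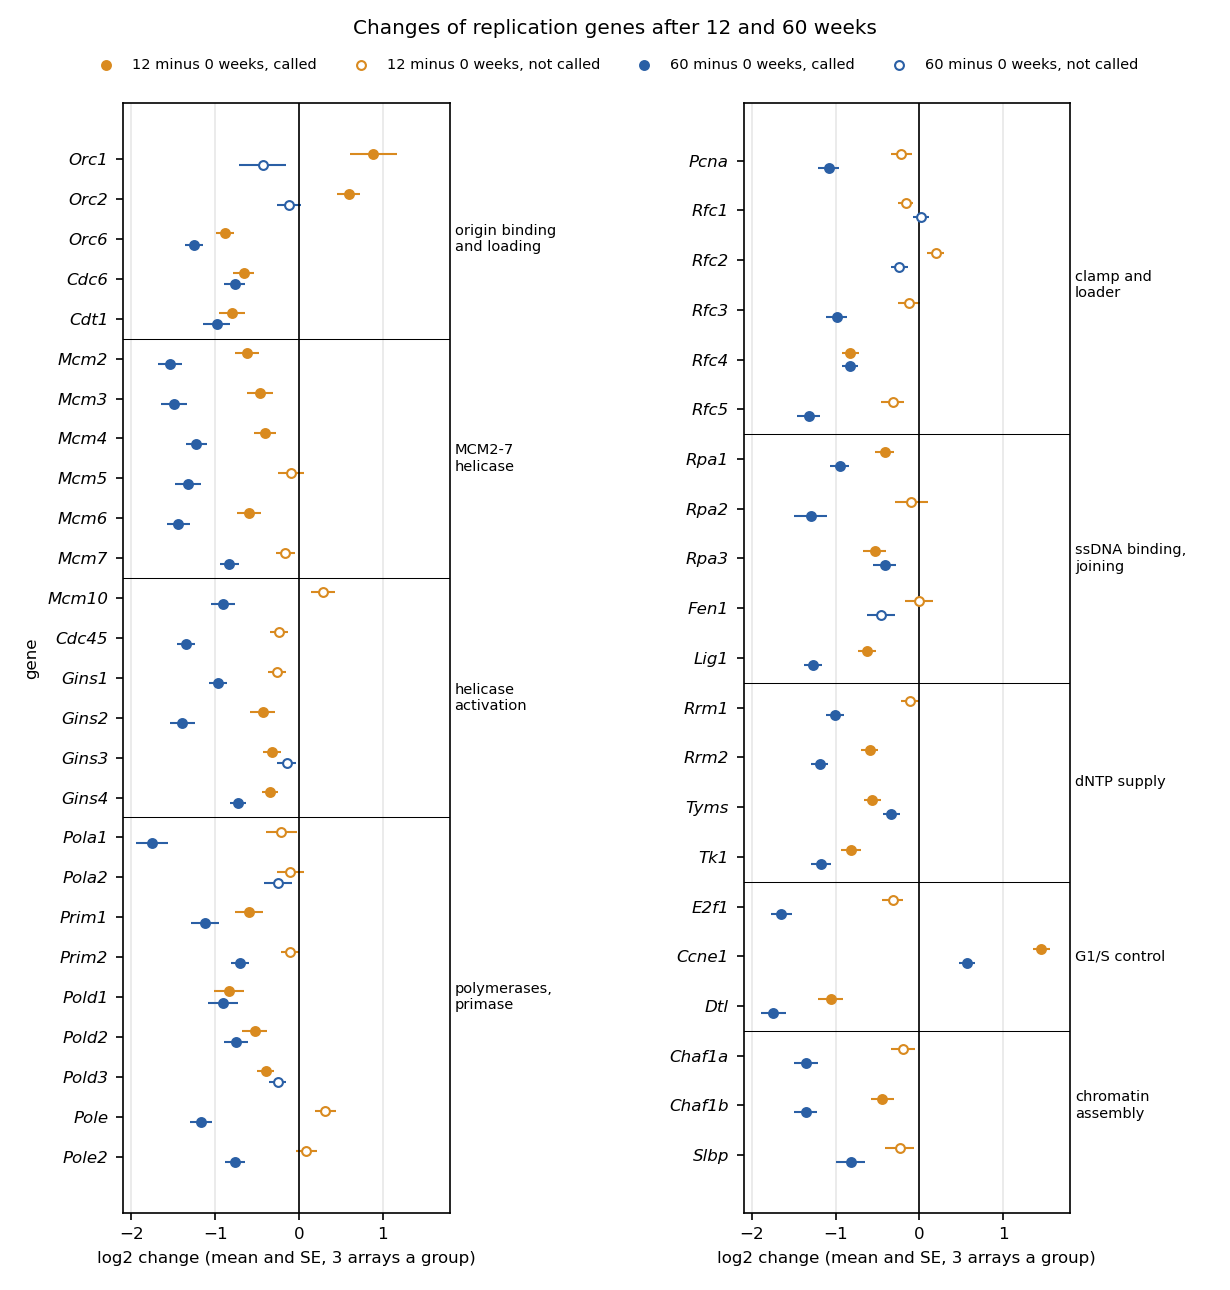
Log2 change of each tested member with its SE (3 arrays a group), by replication step, for 12 minus 0 weeks (orange) and 60 minus 0 weeks (blue); filled points were called by limma at an adjusted p under 0.05 and open points were not. At 60 weeks 38 members are filled on the negative side and Ccne1 alone on the positive side.

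Among G1/S control genes, E2f1, a transcription factor that activates replication genes, fell at 60 weeks and did not pass at 12 weeks. E2f1 had levels of 1.73, 1.67 and 1.53 at 0 weeks, of 1.17, 1.33 and 1.49 at 12 weeks, and of -0.02, -0.16 and 0.17 at 60 weeks. All arrays of 60 weeks lay below all others, and the 12 weeks arrays lay just below those of 0 weeks. The change was -1.65 ± 0.13 at 60 against 0 weeks (limma adjusted p = 3.75e-05), which is 3.13-fold lower, and -0.32 ± 0.13 at 12 against 0 weeks (limma adjusted p = 0.0716). Dtl, the substrate receptor of the ubiquitin ligase that removes Cdt1 in S phase, had levels of 2.02, 1.93 and 1.93 at 0 weeks, of 0.88, 0.87 and 0.97 at 12 weeks, and of 0.11, -0.03 and 0.57 at 60 weeks. Its groups did not overlap and stepped down at each time. Dtl changed by -1.06 ± 0.15 at 12 against 0 weeks (limma adjusted p = 0.000963) and by -1.75 ± 0.15 at 60 against 0 weeks (limma adjusted p = 7.58e-05), 3.35-fold lower.

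Ccne1, which encodes cyclin E1, the activator of the kinase that starts S phase, went the other way. It had levels of 1.57, 1.76 and 1.74 at 0 weeks, of 3.25, 3.04 and 3.14 at 12 weeks, and of 2.23, 2.32 and 2.22 at 60 weeks. The 3 groups did not overlap, with 12 weeks highest and 60 weeks in between. Ccne1 rose by 1.46 ± 0.10 at 12 against 0 weeks (limma adjusted p = 1.67e-05) and by 0.57 ± 0.10 at 60 against 0 weeks (limma adjusted p = 0.0029), and was lower at 60 than at 12 weeks by a log2 change of -0.89 ± 0.10 (limma adjusted p = 0.000361). A second Ccne1 probe differed by 1.63 at 12 against 0 weeks and by 0.22 at 60 against 0 weeks, and with the mean of both probes the second of these changes was 0.40 (limma adjusted p = 0.0741). With slide row added as a block it was 0.74 (limma adjusted p = 0.0552). Ccne2, which encodes cyclin E2, was at background on all 9 arrays (-7.50 to -6.72) and was not tested.

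**Figure D3:**
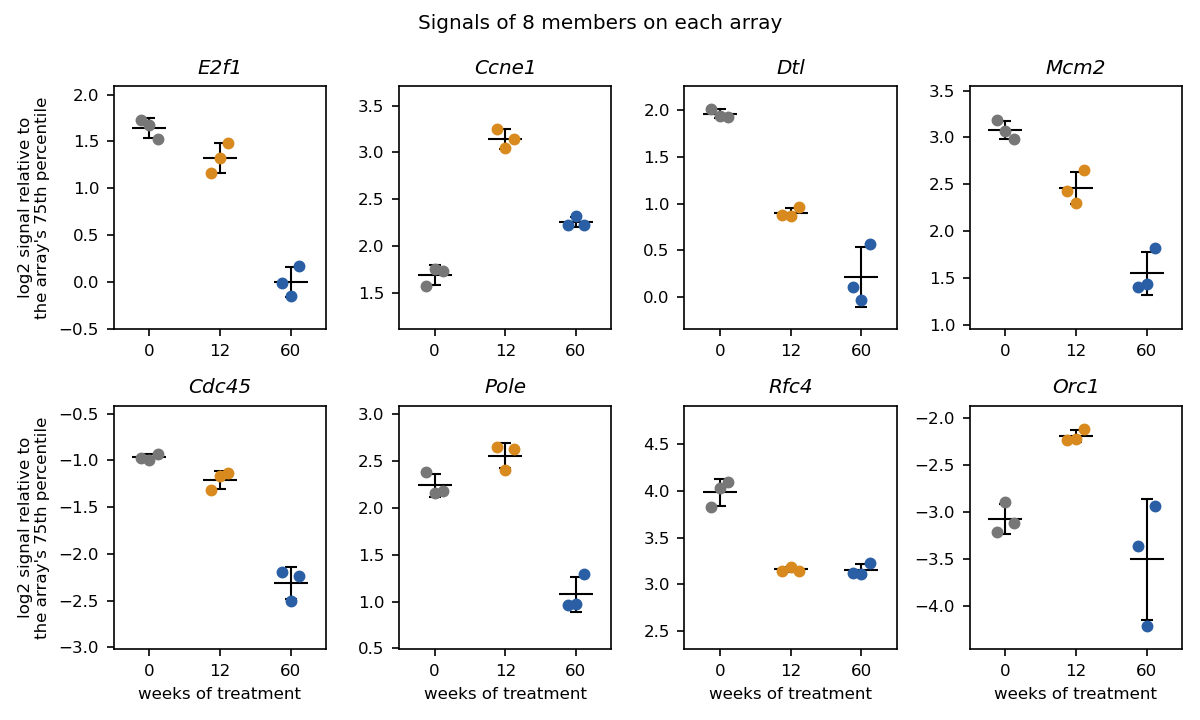
Log2 of the signal over the 75th percentile of its array for 8 members at 0, 12 and 60 weeks; points are arrays, black lines the mean and SD of 3 arrays, and each panel has its own axis range. E2f1, Pole and Cdc45 step down at 60 weeks, Dtl and Mcm2 at each time, Rfc4 at 12 weeks, while Ccne1 and Orc1 peak at 12 weeks.

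The 5 genes of origin binding and helicase loading split. Orc6, a subunit of the origin recognition complex, and the loaders Cdc6 and Cdt1 fell at 12 and 60 weeks, while Orc1 and Orc2, also subunits of the complex, rose at 12 weeks. Orc6 had levels of 4.11, 4.07 and 4.21 at 0 weeks, of 3.21, 3.31 and 3.24 at 12 weeks, and of 2.80, 2.74 and 3.07 at 60 weeks. Cdt1 had levels of 4.77, 4.84 and 4.82 at 0 weeks, of 4.06, 3.89 and 4.09 at 12 weeks, and of 3.66, 3.62 and 4.20 at 60 weeks. Orc6 therefore had 3 separate groups, whereas the 60 weeks arrays of Cdt1 overlapped those of 12 weeks. At 60 against 0 weeks Orc6 changed by -1.26 ± 0.11 (limma adjusted p = 7.55e-05) and Cdt1 by -0.98 ± 0.16 (limma adjusted p = 0.00208). At 60 against 12 weeks the change of Cdt1 was -0.19 ± 0.16 (limma adjusted p = 0.385).

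Orc1 had levels of -3.21, -2.89 and -3.12 at 0 weeks, of -2.23, -2.22 and -2.11 at 12 weeks, and of -3.37, -4.22 and -2.94 at 60 weeks. Orc2 had levels of -0.09, -0.21 and 0.02 at 0 weeks, of 0.62, 0.37 and 0.51 at 12 weeks, and of -0.22, -0.45 and 0.04 at 60 weeks. In both genes the 12 weeks arrays were above all others, and those of 60 and 0 weeks overlapped. At 12 against 0 weeks Orc1 rose by 0.89 ± 0.28 (limma adjusted p = 0.034) and Orc2 by 0.59 ± 0.14 (limma adjusted p = 0.0105). At 60 against 12 weeks Orc1 changed by -1.32 ± 0.28 (limma adjusted p = 0.00772) and Orc2 by -0.71 ± 0.14 (limma adjusted p = 0.00574). The rise of Orc1 at 12 weeks lost its call when any single array of 0 or 12 weeks was left out, with limma adjusted p of 0.0518 to 0.0963. The call was also lost when the median change of its chromosome's tested genes was subtracted (0.64, limma adjusted p = 0.1): Orc1 lies on chromosome 4, whose genes had a median of 0.26 at 12 against 0 weeks.

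All 6 subunits of the MCM2-7 helicase, which unwinds DNA at the fork, fell at 60 weeks, by a median of -1.38 (2.61-fold) against 0 weeks and -0.88 against 12 weeks. At 12 against 0 weeks 4 of the 6 fell, and Mcm5 (-0.09 ± 0.16) and Mcm7 (-0.16 ± 0.12) did not pass. With slide row as a block Mcm2 alone kept its call there, and that of Mcm6 was lost at a limma adjusted p of 0.0592. Mcm2 had levels of 3.18, 3.07 and 2.99 at 0 weeks, of 2.43, 2.30 and 2.65 at 12 weeks, and of 1.40, 1.43 and 1.81 at 60 weeks. Mcm6 had levels of 6.42, 6.59 and 6.62 at 0 weeks, of 6.004, 5.76 and 6.10 at 12 weeks, and of 4.92, 5.04 and 5.36 at 60 weeks. Both genes formed 3 groups without overlap, in the order of time. At 60 against 0 weeks Mcm2 changed by -1.53 ± 0.14 (limma adjusted p = 0.000125) and Mcm6 by -1.44 ± 0.14 (limma adjusted p = 0.000177). The smallest change of the 6 in that comparison was that of Mcm7, -0.83 ± 0.12.

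Of the genes that activate the helicase, 5 of 6 fell at 60 against 0 weeks and at 60 against 12 weeks. Cdc45, a part of the active helicase, had levels of -0.97, -0.99 and -0.93 at 0 weeks, of -1.32, -1.17 and -1.14 at 12 weeks, and of -2.19, -2.50 and -2.23 at 60 weeks. Gins2, a GINS subunit, had levels of 2.27, 2.13 and 2.27 at 0 weeks, of 1.69, 1.88 and 1.801 at 12 weeks, and of 0.74, 0.61 and 1.15 at 60 weeks. Both were lowest on the arrays of 60 weeks with no overlap. Cdc45 at 60 against 0 weeks changed by -1.34 ± 0.11 (limma adjusted p = 5.48e-05) and Gins2 by -1.39 ± 0.14 (limma adjusted p = 0.000224). Gins3, another GINS subunit, had its call at 12 against 0 weeks alone (-0.32 ± 0.11, limma adjusted p = 0.0477) and differed by -0.14 ± 0.11 at 60 against 0 weeks (limma adjusted p = 0.354). Mcm10, which helps the helicase to start, was 0.29 ± 0.15 above 0 weeks at 12 weeks without passing (limma adjusted p = 0.148), and fell at 60 weeks.

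Of the 9 polymerase and primase genes 7 fell at 60 against 0 weeks, with a median of -0.77. Pola1, the catalytic subunit of polymerase alpha, had levels of 2.04, 1.75 and 1.61 at 0 weeks, of 1.68, 1.44 and 1.66 at 12 weeks, and of -0.21, -0.10 and 0.44 at 60 weeks. Pole, the catalytic subunit of the leading-strand polymerase epsilon, had levels of 2.39, 2.16 and 2.18 at 0 weeks, of 2.65, 2.40 and 2.63 at 12 weeks, and of 0.96, 0.97 and 1.30 at 60 weeks. In both the arrays of 60 weeks were far below the rest, and those of 12 and 0 weeks overlapped for Pola1 and nearly touched for Pole. At 60 against 0 weeks Pola1 changed by -1.76 ± 0.19 (limma adjusted p = 0.000268), the largest fall among the members in that comparison, and Pole by -1.17 ± 0.13 (limma adjusted p = 0.000326). A second Pole probe was above background on 1 array of 60 weeks and on 0 arrays of the other groups, so no change is given for it. Pold1 and Pold2, subunits of the lagging-strand polymerase delta, fell at 12 weeks (-0.84 ± 0.18 and -0.53 ± 0.15) and showed no further change that passed. Pola2, the second subunit of polymerase alpha, had no call in any comparison (-0.25 ± 0.17 at 60 against 0 weeks, limma adjusted p = 0.281).

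In the clamp and clamp loader group 4 of 6 genes fell at 60 against 0 weeks: Pcna, the sliding clamp, and the loader subunits Rfc3, Rfc4 and Rfc5. Rfc5 had levels of 3.57, 3.47 and 3.68 at 0 weeks, of 3.33, 3.08 and 3.35 at 12 weeks, and of 2.07, 2.19 and 2.48 at 60 weeks. Rfc4 had levels of 3.82, 4.03 and 4.09 at 0 weeks, of 3.15, 3.19 and 3.14 at 12 weeks, and of 3.12, 3.11 and 3.22 at 60 weeks. Rfc5 was lowest at 60 weeks without overlap, and Rfc4 was equally low at 12 and 60 weeks within its spread. Rfc5 changed by -1.004 ± 0.13 at 60 against 12 weeks (limma adjusted p = 0.000988) and Rfc4 by -0.01 ± 0.10 (limma adjusted p = 0.966). Rfc4 changed by -0.82 ± 0.10 at 12 against 0 weeks (limma adjusted p = 0.000374). A second Rfc4 probe, not tested by itself, differed by -0.75 at 12 against 0 weeks and by a further -0.25 at 60 against 12 weeks. Pcna changed by -1.08 ± 0.13 at 60 against 0 weeks, and Rfc2 passed at 60 against 12 weeks alone (-0.44 ± 0.10). Rfc1, the large loader subunit, had no call, with 0.02 ± 0.09 at 60 against 0 weeks (limma adjusted p = 0.895). Rfc1 and Rfc2 lie on chromosome 5, whose tested genes had medians of 0.17 at 12 and 0.11 at 60 weeks, both against 0 weeks. With chromosome medians subtracted, Rfc1 was called lower at 12 against 0 weeks (-0.33, limma adjusted p = 0.0167). Rfc2 was then called lower at 60 against 0 weeks (limma adjusted p = 0.0329).

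Of the 5 genes for single-strand binding and lagging-strand joining 4 fell at 60 against 0 weeks. Lig1, the ligase that seals Okazaki fragments, had levels of 5.23, 5.21 and 5.27 at 0 weeks, of 4.44, 4.75 and 4.64 at 12 weeks, and of 3.87, 4.08 and 3.96 at 60 weeks. Rpa1, the large subunit of the single-strand binding protein, had levels of 5.31, 5.35 and 5.29 at 0 weeks, of 4.90, 4.93 and 4.88 at 12 weeks, and of 4.30, 4.21 and 4.59 at 60 weeks. Each gene formed 3 separate groups in the order of time. Lig1 at 60 against 0 weeks changed by -1.27 ± 0.11 (limma adjusted p = 6.71e-05) and Rpa1 by -0.95 ± 0.11 (limma adjusted p = 0.000393). Fen1, the nuclease that trims the fragments before Lig1 joins them, had no call: its change was -0.46 ± 0.17 at 60 against 0 weeks (limma adjusted p = 0.0671). Fen1 and Pola2 both lie on chromosome 19, whose tested genes had a median change of 0.37 at 60 against 0 weeks, and with chromosome medians subtracted both were called lower, Fen1 at -0.85 (limma adjusted p = 0.00439) and Pola2 at -0.65 (limma adjusted p = 0.0163). Fen1 was also called lower without 60 weeks replicate 3 (-0.63, limma adjusted p = 0.0144) and without 12 weeks replicate 2.

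All 4 deoxynucleotide genes fell at 60 against 0 weeks, with a median of -1.09, and 3 of 4 fell at 12 weeks. Rrm2, the regulated subunit of ribonucleotide reductase, had levels of 4.85, 5.005 and 4.94 at 0 weeks, of 4.28, 4.46 and 4.28 at 12 weeks, and of 3.63, 3.84 and 3.75 at 60 weeks. Tk1, the thymidine kinase of dividing cells, had levels of 5.02, 5.15 and 5.01 at 0 weeks, of 4.05, 4.27 and 4.41 at 12 weeks, and of 3.76, 3.97 and 3.92 at 60 weeks. The 3 groups of each gene stood apart and descended with time. Rrm2 at 60 against 0 weeks changed by -1.19 ± 0.10 (limma adjusted p = 6.24e-05) and Tk1 by -1.17 ± 0.12 (limma adjusted p = 0.000175). Tyms, thymidylate synthase, changed by -0.56 ± 0.10 at 12 weeks and -0.34 ± 0.10 at 60 weeks, both against 0 weeks, and its difference between 60 and 12 weeks did not pass (0.23 ± 0.10, limma adjusted p = 0.114).

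Chaf1a and Chaf1b, subunits of the chromatin assembly factor that places histones behind the fork, and Slbp, which binds the end of histone mRNA, all fell at 60 weeks against both other groups. The call of Slbp at 60 against 0 weeks was lost with slide row as a block (limma adjusted p = 0.0719). Chaf1a had levels of 2.44, 2.49 and 2.31 at 0 weeks, of 2.18, 2.11 and 2.36 at 12 weeks, and of 0.81, 1.07 and 1.31 at 60 weeks. Chaf1b had levels of 4.10, 4.13 and 4.29 at 0 weeks, of 3.69, 3.61 and 3.88 at 12 weeks, and of 2.69, 2.68 and 3.08 at 60 weeks. The 60 weeks arrays of both were below all others, and 12 and 0 weeks overlapped for Chaf1a only. Chaf1a at 60 against 0 weeks changed by -1.35 ± 0.14 (limma adjusted p = 0.00024) and Chaf1b by -1.36 ± 0.14 (limma adjusted p = 0.000196). At 12 against 0 weeks Chaf1b fell by 0.44 on the log2 scale (limma adjusted p = 0.0315), a call lost with slide row as a block.

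Of 76 further replication and G1/S genes listed by symbol, 72 were tested. At 60 against 0 weeks 2 rose and 35 fell (median -0.47), where 16.7% of all tested genes were called higher and 16.1% lower. The 2 that rose were Orc3, an origin complex subunit, and Cdc25a, a CDK phosphatase. At 12 against 0 weeks 9 rose and 18 fell (median -0.01), where 19.1% of all tested genes were called higher and 22.7% lower. The lowest adjusted p at 60 against 0 weeks among G1/S regulators belonged to Ccnd2, a D-type cyclin. Ccnd2 had levels of 5.45, 5.21 and 5.14 at 0 weeks, of 4.55, 4.605 and 4.36 at 12 weeks, and of 2.32, 1.99 and 2.32 at 60 weeks, and its change was -3.06 ± 0.13 (limma adjusted p = 2.35e-06) at 60 against 0 weeks. In the same comparison Dscc1, a clamp loader subunit, changed by -1.59 ± 0.17, Tipin, a fork protection factor, by -1.38 ± 0.13 and Asf1b, a histone chaperone, by -1.26 ± 0.10. Topbp1, needed for origin firing, changed by -1.03 ± 0.12, E2f8, a repressor among the E2F factors, by -0.91 ± 0.10, and Gmnn, the inhibitor of Cdt1, by -0.82 ± 0.13. Dck (-1.07 ± 0.15), Uhrf1 (-1.02 ± 0.15), Mcm8 (-0.81 ± 0.13) and Donson (-0.76 ± 0.17) also fell.

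Of 18 mitotic genes tested, which act after replication, 3 fell and 0 rose at 60 against 0 weeks, a share near the 16.1% of all tested genes called lower, with a median of -0.25. At 12 against 0 weeks 2 fell and 1 rose, where 22.7% of all tested genes were called lower, with a median of -0.02. Ttk, a spindle checkpoint kinase, changed by -0.84 ± 0.17 and Birc5, survivin, by -0.54 ± 0.11 at 60 against 0 weeks. Named after their values were seen, the other gene that fell there was Kif20a, and at 12 against 0 weeks Kif11 and Cenpf fell and Aurka rose. The difference between mitotic genes and members was not tested.

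**Figure D4:**
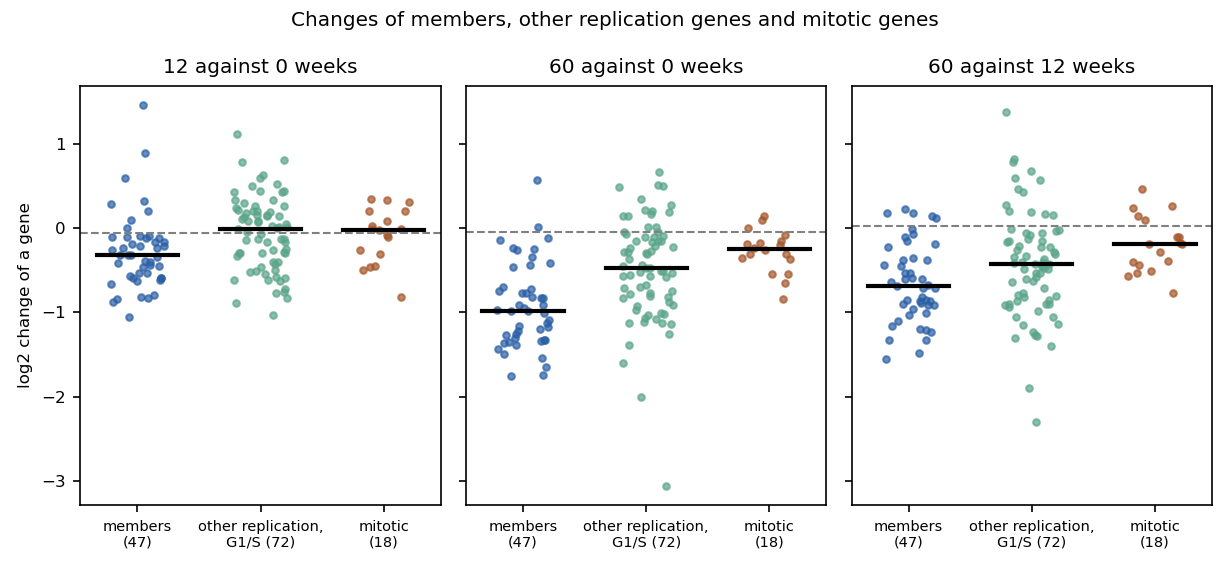
Log2 change of each tested gene in the 3 comparisons for the 47 members, 72 other replication and G1/S genes and 18 mitotic genes; each point is a gene, black bars are medians and the dashed line is the median of all tested genes. At 60 against 0 weeks the bars lie at -0.98 for members, -0.47 for other replication genes and -0.25 for mitotic genes.

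Of the 7 CDK inhibitors, which restrain G1/S kinases, those beyond Cdkn2c and Cdkn1c are named after their values were seen. At 12 against 0 weeks 3 of the 7 rose and 3 fell, where 19.1% of all tested genes were called higher and 22.7% lower. At 60 against 0 weeks 1 rose and 1 fell, where 16.7% of all tested genes were called higher and 16.1% lower. Cdkn2c changed by -1.20 ± 0.11 at 12 weeks and -0.52 ± 0.11 at 60 weeks, both against 0 weeks, and Cdkn1c by 0.76 ± 0.17 at 12 weeks and 0.66 ± 0.17 at 60 weeks. Cdkn1b and Cdkn2d also fell at 12 weeks. The other two that rose at 12 weeks were Cdkn2a and Cdkn2b. They were at background on all arrays of 0 and 60 weeks and lay at 2.28 to 2.70 (Cdkn2a) and 2.604 to 2.97 (Cdkn2b) at 12 weeks. They passed the filter on dim probes through the 12 weeks arrays alone, so their calls there add no support. Cdkn2a was at least 152-fold higher and Cdkn2b at least 185-fold higher at 12 than at 0 weeks, with the dim group set to the detection limit.

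Outside all lists, the 5 genes whose levels ran most closely with the members' mean over the 9 arrays were Timm29 (r = 0.990), Lbr (r = 0.989), Cenpi (r = 0.987), Camk1 (r = 0.986) and Mblac2 (r = 0.985). The 9 points share their arrays and 3 groups, so r describes these arrays only.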

How the data were processed

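Per the file headers, Agilent Feature Extraction 10.7.3.1 was the authors' scanner software, and each spot's deposited intensity is linear, background-subtracted and unscaled across arrays. A deposited table of values gives a linear signal for 42530 probes, which equals those intensities divided by 1 constant per array (0.993 to 0.999 of the 75th percentile); its medians run from 0.0582 to 0.0733.

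Outlier spots (117 to 163 of 59305 per array) were left out, spots of a probe averaged, and the 75th percentile of all non-control probes on the array subtracted after log2. Probes had to be well above background on 2 of 3 arrays of a group. RefSeq accessions named 27235 of 55681 probes and left 28446 unnamed. The brightest probe stood for a gene. limma 3.58.1 (R 4.3.3) was fitted over all 9 arrays without a block, two-sided, with 3 arrays per group limiting precision, and was tested on simulated data.

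Members and lists were chosen with earlier results of these data known. Values on every array are given for the 2 members per step with the lowest F test p, members called higher, and the G1/S control genes; of each other list, the 2 genes with the lowest adjusted p at 60 against 0 weeks are named, except 1 gene that is not reported here. Alternatives covered background correction, scaling, dim probes, arrays in the fit, blocks, probe choice, the deposited table, chromosome medians and single arrays left out. The background correction alternative (normexp, offset 50) used median spot signals, since mean signals were not used here. Same-numbered arrays deviated together at r of -0.08 to 0.20, so the numbers were not taken as pairs.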

Additional observations from a re-analysis of the deposited data

How the results depend on the processing

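No called member reversed direction under any alternative run. Leaving out 1 array at a time gave 13 to 24 members lower at 12 against 0 weeks, and 15.9% to 29% of all tested genes. With slide row as a block, the members' median at 60 against 0 weeks was -1.156 and 0 members were called higher. With the mean of a gene's probes 0 members were also called higher. As 60 and 0 weeks share no row, the row block links them through 12 weeks, with replicate 1 alone beside 0 weeks. The cause of the lost calls was not tested. Over all genes that block called 702 higher and 690 lower at 60 against 0 weeks, against 2341 and 2259 without it. With a replicate block 22, 37 and 36 members were lower at 12 against 0, 60 against 0 and 60 against 12 weeks. The shares of all tested genes called lower were then 22.4%, 15.6% and 17.5% in that order. The slide as a block equals leaving out 60 weeks replicate 3, the only array of its slide. The deposited value table, which tests 40 members, gave 22, 32 and 28 lower, against 22.9%, 15.8% and 16.4% of all genes tested in it. With chromosome medians subtracted, 18 members were lower and 2 higher at 12 against 0 weeks, against 19% and 20.2% of all tested genes. The calls of Orc1, Mcm3, Mcm4, Gins2, Gins3, Pold2, Pold3, Rpa1 and Chaf1b were lost there, while Mcm7, Rfc1 and Rfc5 were called lower. At 60 against 0 weeks 40 members were then lower, against 14.2% of all tested genes, with Fen1, Pola2 and Rfc2 and without Rpa3.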
